A study of Mus musculus with 6 samples.

Results

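The AP-1 and small Maf factors examined here were the 10 genes *Fos*, *Fosb*, *Fosl2*, *Jun*, *Junb*, *Jund*, *Atf3*, *Maff*, *Mafg* and *Mafk*. They were chosen by gene symbol, with earlier results of these data known. All 10 were found among the 24532 genes of the expression table and passed the filter on low counts. RNA of gastrocnemius (GAS) muscle from mice of 20 weeks on the C57BL/6 strain was sequenced in 6 libraries. The 3 libraries labelled WT came from *Sirt6* flox/flox mice, which carry the floxed alleles without Cre. The 3 libraries labelled *Sirt6* KO came from *Sirt6* flox/flox mice that also carry *Myl1-Cre*, so that the deletion and the presence of Cre cannot be told apart. *Myl1-Cre* is active mainly in fast myofibers, and cells in which it is not active keep the gene. The methods state male mice, and no label names a treatment.

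Fos and Jun proteins are leucine zipper factors that pair with each other to form AP-1, which binds short sites in promoters and enhancers. *Fos*, *Fosb*, *Jun*, *Junb* and *Atf3* are immediate-early genes: muscle contraction, stretch, stress hormones and cAMP signalling induce them within minutes, and their RNA is short-lived. The small Maf proteins lack an activation domain. They bind DNA as partners of NRF2 and related CNC factors, which switch on antioxidant genes, or of BACH1, which represses them. cAMP signalling reaches several of these genes through CREB, which binds the cAMP response element TGACGTCA or its shorter form TGACG.

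Because CREB is the factor that the study follows, promoters that carry these letters are shown first for 6 of the members, with the nearest related one in *Jun* for comparison. RefSeq on GRCm38.p6 lists 12 transcription starts for the 10 genes, of which *Maff* has 3. The 250 bases before each start were searched on both strands. Each line gives the 140 bases that end just before the start, with TGACG on either strand in capitals, TGACGTCA in *Maff*, and TGACATCA, an ATF-type variant, in *Jun*.
Maff, chr15:79347380-79347519, plus strand: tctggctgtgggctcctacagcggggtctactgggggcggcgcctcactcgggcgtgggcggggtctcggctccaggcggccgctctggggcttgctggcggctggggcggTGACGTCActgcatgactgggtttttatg
Fos, chr12:85473750-85473889, plus strand: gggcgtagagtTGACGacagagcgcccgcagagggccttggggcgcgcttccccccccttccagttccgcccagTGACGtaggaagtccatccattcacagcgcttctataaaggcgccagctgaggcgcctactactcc
Atf3, chr1:191183334-191183473, minus strand: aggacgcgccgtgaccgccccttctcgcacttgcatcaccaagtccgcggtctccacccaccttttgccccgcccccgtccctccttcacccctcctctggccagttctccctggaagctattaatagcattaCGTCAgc
Fosb, chr7:19310046-19310185, minus strand: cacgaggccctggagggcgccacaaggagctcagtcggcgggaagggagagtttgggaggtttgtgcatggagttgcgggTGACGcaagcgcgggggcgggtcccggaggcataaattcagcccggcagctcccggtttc
Jun, chr4:95052223-95052362, minus strand: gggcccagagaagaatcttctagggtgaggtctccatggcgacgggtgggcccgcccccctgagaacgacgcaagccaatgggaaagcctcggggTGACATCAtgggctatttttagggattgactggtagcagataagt
Junb, chr8:84978749-84978888, minus strand: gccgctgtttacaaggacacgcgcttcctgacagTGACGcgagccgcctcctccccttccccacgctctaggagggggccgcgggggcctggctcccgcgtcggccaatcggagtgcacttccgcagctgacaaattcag
Mafg, chr11:120633548-120633687, minus strand: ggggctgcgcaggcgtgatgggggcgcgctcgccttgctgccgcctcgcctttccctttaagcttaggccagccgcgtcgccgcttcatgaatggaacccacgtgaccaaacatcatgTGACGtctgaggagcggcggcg
TGACGTCA was found in 1 member, *Maff*, 29 bases before its middle start, and in 1.55% of all 32851 promoter windows of the same length. TGACG, which is also part of TGACGTCA, was found before at least 1 start of 7 of the 10 members, and in 17.8% of all windows. It lay 66 and 129 bases before the start of *Fos*, 60 before *Fosb*, 106 before *Junb*, 7 before *Atf3*, 22 before *Mafg* and 41 before *Mafk*. TGACATCA lay 45 bases before the starts of *Jun* and of the last *Maff* transcript, and in 2.93% of all windows. The AP-1 site TGACTCA was in none of the 12 windows and in 4.46% of all, and the CArG box that the serum response factor binds was in none and in 1.47% of all. TGACNNNGC, the core of the antioxidant response element that small Maf dimers bind, was before a start of 3 members, *Maff*, *Mafg* and *Mafk*, and in 10.2% of all windows. These are matches of letters only, and sites more than 250 bases before a start were not searched, so absence from a window is not absence from the promoter. TGACG stood before genes with large differences between the groups, such as *Fos*, and before genes that did not pass, such as *Junb* and *Mafg*.

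The libraries held between 44845763 and 63016899 counts on genes, and 13801 genes were tested with edgeR's quasi-likelihood test. Levels are normalized CPM, counts scaled to the library total after TMM normalization, and 1 count was worth between 0.0165 and 0.0212 CPM. *Sirt6* itself had 2.77, 2.23 and 2.88 CPM in WT, and 7.81, 7.44 and 6.68 CPM where the label was *Sirt6* KO. It was thus higher in the labelled KO libraries (by 1.48 on the log2 scale with a standard error of 0.17, adjusted p = 0.0113), against the direction of a deletion, and a count for a whole gene cannot show whether the floxed exons were read. Each direction below therefore rests on the labels. The study also reports, by Western blot, ablation of Sirt6 protein in skeletal muscle of its knockout mice. It reports decreases of CREB target genes in GAS by qPCR and Western blot as well. Those are measures other than the counts read here. The 8 skeletal muscle markers summed to between 134691 and 226447 CPM. The labels number the replicates and do not state that each is a separate animal. The study's reporting summary states multiple biological replicates for its experiments. The p-values set the difference between the groups against the spread between these libraries.

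*Maff*, *Fos* and *Atf3* fell by about an order of magnitude in the libraries labelled *Sirt6* KO, while the means of *Jund* and *Mafg* differed by 1.00-fold and 1.19-fold and neither passed the test. At an adjusted p under 0.05, 3 of the 10 members were lower, against 8.39% of all genes tested, and 0 were higher, against 7.85%. At an unadjusted p under 0.05 the edgeR test gave 7 lower, against 18.1% of all genes, and 0 higher, against 17.2%. DESeq2's Wald test gave 6 lower at an adjusted p under 0.05, against 13.7% of its genes, and 0 higher. By the cutoff that the study set (over 2-fold, with p under 0.05 before adjustment), 5 members were lower, against 4.69% of all genes. All 10 log2 fold changes were below 0, with a median of -1.25, where the median over all genes tested was -0.021. *Atf3* and *Maff* are among the genes that the study picked from these libraries for their decrease, so their direction is not independent evidence. All 10 members were chosen with earlier results of these data known, so an excess over the shares of all genes is not independent evidence either. The 3 calls depended on single libraries. Without WT library 1, WT library 2, labelled KO library 1 or labelled KO library 3, 0 members passed, and without WT library 3, 6 did, against 15.7% of all genes in that fit. The calls over all genes moved likewise, to 2 lower genes without labelled KO library 1 and 2219 without WT library 3.

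**Figure D1:**
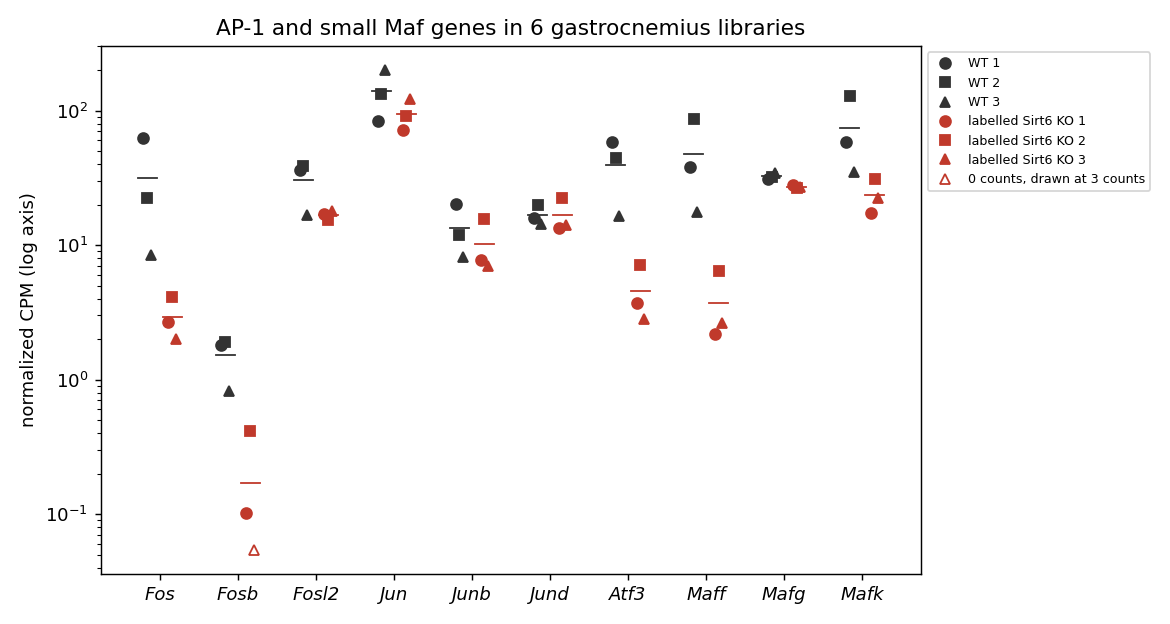
Normalized CPM (log axis) of the 10 members in each of the 6 libraries, with a horizontal bar at the mean of each group; the open triangle is a library with 0 counts, drawn at the level of 3 counts. The groups stand apart for *Fos*, *Fosb*, *Atf3*, *Maff*, *Mafg* and *Mafk*, and overlap for the other 4 genes.

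*Fos* (NCBI gene 14281; chr12:85473890-85477274) encodes c-Fos, the partner that AP-1 gains on stimulation. It was at 63.0, 22.3 and 8.50 CPM in WT, and it was at 2.68, 4.12 and 2.00 CPM in the labelled *Sirt6* KO libraries. The highest labelled KO library stood below the lowest WT library, and the WT libraries themselves spanned 7.41-fold. The mean level was 31.3 ± 28.3 CPM in WT and 2.93 ± 1.09 CPM in the labelled KO libraries (SD, n = 3 each), and the difference was -3.41 on the log2 scale with a standard error of 0.71 (adjusted p = 0.0236). *Fos* passed in 8 of the 10 other fits that kept every library and in 1 of the 6 that left 1 out. Among the 8 was DESeq2's Wald test, which the study's figure legend names (adjusted p = 0.000346). It did not pass with limma on log2(FPKM + 1), the scale of the study's methods (adjusted p = 0.0859), nor on log2(FPKM + 0.1) (0.0548).

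*Fosb* (gene 14282; chr7:19302696-19310118), whose product can replace c-Fos and whose short variant accumulates on repeated stimulation in neurons, was the rarest member. Its counts were 91, 90 and 47 in WT and 6, 25 and 0 in the labelled KO libraries, or 1.82, 1.91 and 0.820 CPM against 0.103, 0.412 and 0. The groups did not overlap. The log2 fold change of -3.10 (standard error 0.93) missed the threshold at an adjusted p of 0.0601. *Fosb* passed in 5 of the 10 other fits that kept every library: DESeq2 (0.00515), both limma scales (0.0356 and 0.0323), the fit with the replicate number as a block (0.0438) and the slow fiber covariate (0.0256). Over all alternatives its adjusted p ranged from 0.00515 to 0.177. Few reads bear on it: in labelled KO library 3, 3 counts would be 0.0545 CPM.

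*Fosl2* (gene 14284; chr5:32136472-32157840) encodes Fra-2, a Fos protein without a strong activation domain. It was at 36.0, 38.7 and 16.7 CPM in WT and at 16.9, 15.4 and 18.0 in the labelled KO libraries. WT library 3 was thus level with the labelled KO libraries, and WT libraries 1 and 2 stood above them. The difference was -0.86 on the log2 scale with a standard error of 0.29 (adjusted p = 0.0829). Without WT library 3 it was -1.15 (adjusted p = 0.00408).

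Within the Fos family, TPM, which is scaled to gene length and lets genes be set side by side, showed a different leading gene in the groups. *Fos* made up 81.9%, 60.0% and 57.0% of the summed TPM of *Fos*, *Fosb* and *Fosl2* in WT, and 30.6%, 41.7% and 23.6% in the labelled KO libraries. *Fosl2* had the largest share in each labelled KO library, at 68.8%, 56.0% and 76.4%. The sum of the 3 genes was 88.1, 40.1 and 13.8 TPM in WT and 8.78, 9.36 and 7.96 TPM in the labelled KO libraries.

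*Atf3* (gene 11910; chr1:191170296-191183333), a stress-induced factor of the ATF group that pairs with Jun proteins and often represses, was at 58.3, 44.4 and 16.3 CPM in WT. In the labelled KO libraries it was at 3.73, 7.11 and 2.83. Every labelled KO library lay below every WT library. From 39.7 ± 21.4 to 4.56 ± 2.26 CPM (SD, n = 3 each), it differed by -3.12 on the log2 scale with a standard error of 0.53, and its adjusted p of 0.0163 was the smallest of the 10. It passed in all 10 other fits that kept every library and in 2 of the 6 that left 1 out.

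The Jun family did not pass in either direction. *Jun* (gene 16476; chr4:95049036-95052222), which encodes c-Jun, the main DNA-binding partner of Fos, had the highest mean TPM of the members in both groups, with of 93.1 ± 29.1 TPM in WT and 59.9 ± 14.9 TPM in the labelled KO libraries (SD, n = 3 each). In CPM it was at 84.1, 133 and 200.5 against 71.5, 90.6 and 122, with overlap. Its order in WT was the reverse of that of *Fos*: WT library 3 was highest in *Jun* and lowest in *Fos*. The log2 fold change was -0.55, with a 95% interval from -1.31 to 0.20 (adjusted p = 0.260).

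*Junb* (gene 16477; chr8:84976909-84978748), an immediate-early Jun that also maintains muscle mass, was at 20.2, 11.9 and 8.13 CPM in WT and at 7.79, 15.7 and 7.05 in the labelled KO libraries. Labelled KO library 2 stood above WT libraries 2 and 3. The log2 fold change was -0.40 (95% interval from -1.34 to 0.55, adjusted p = 0.519). *Jund* (gene 16478; chr8:70697739-70700616), the Jun gene expressed without stimulation, was at 16.0, 19.9 and 14.3 CPM in WT and at 13.5, 22.5 and 14.1 in the labelled KO libraries. Its log2 fold change was -0.0050, with a 95% interval from -0.53 to 0.52 (adjusted p = 0.989), and its sign changed with the setting. *Jun* held between 61.5% and 87.0% of the family's summed TPM in WT and between 63.5% and 81.5% in the labelled KO libraries, so that these shares overlapped.

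The small Maf genes differed among themselves. *Maff* (gene 17133; chr15:79346621-79359078), the inducible member, was at 38.1, 86.2 and 17.5 CPM in WT and at 2.19, 6.42 and 2.61 in the labelled KO libraries. All labelled KO libraries lay below the lowest WT library. From a mean of 47.3 ± 35.3 to one of 3.74 ± 2.33 CPM (SD, n = 3 each), or 12.6-fold lower, it differed by -3.66 on the log2 scale with a standard error of 0.67 (adjusted p = 0.0183), the largest decrease of the 10 and place 20 from the most decreased of the 13801 genes. It passed in all 10 other fits with every library and in 2 of the 6 with 1 left out.

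*Mafk* (gene 17135; chr5:139791536-139802653), the member first known from erythroid cells, was at 58.3, 129 and 34.7 CPM in WT and at 17.3, 31.1 and 22.4 in the labelled KO libraries. The groups did not overlap, although labelled KO library 2 came close to WT library 3. The log2 fold change was -1.65 (standard error 0.46), and just missed the threshold at an adjusted p of 0.0511. *Mafk* passed in 4 of the 10 other fits that kept every library, with DESeq2 (0.00114), the replicate block (0.0353), the GC correction with the block (0.0437) and the slow fiber covariate (0.0141). Over all alternatives its adjusted p ranged from 0.00114 to 0.162. *Mafg* (gene 17134; chr11:120625117-120634955), a member expressed in many tissues, was at 30.8, 31.9 and 34.4 CPM in WT and at 28.2, 26.4 and 27.1 in the labelled KO libraries. It varied least, by 1.12-fold within WT and 1.07-fold within the labelled KO libraries, so that the groups stood apart at a difference of -0.25 on the log2 scale with a standard error of 0.097 (adjusted p = 0.113). *Mafg* shares 1206 bases with *Gm17586*, annotated on the other strand, and whether the counting used the strand is not stated.

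Per length, *Mafg* was the largest part of the small Maf genes in every labelled KO library, and in WT this held for WT library 3 alone. *Maff* made up 33.1%, 40.4% and 21.2% of their summed TPM in WT and 4.62%, 10.8% and 5.21% in the labelled KO libraries. *Mafg* made up 31.9%, 17.8% and 49.7% against 70.3%, 53.0% and 64.1%. *Mafk* took between 25.0% and 41.7% in all 6 libraries. The summed level was 142, 247 and 81.8 TPM in WT and 51.3, 60.7 and 51.2 TPM in the labelled KO libraries.

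**Figure D2:**
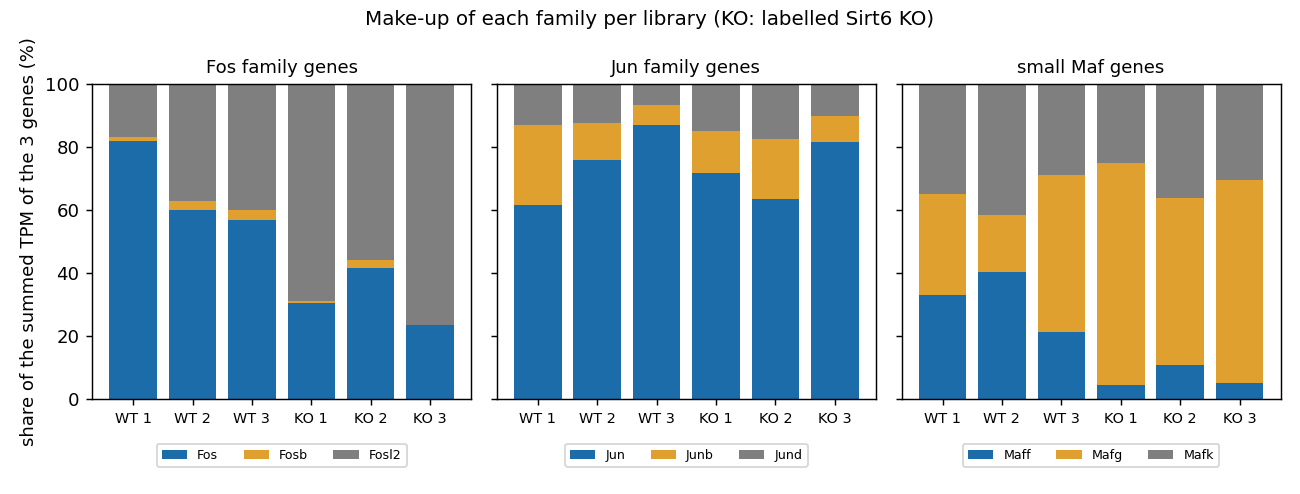
Share (%) of each gene in the summed TPM of its family, 1 stacked bar per library, for the Fos family, the Jun family and the small Maf genes. *Fosl2* and *Mafg* take the largest share in every labelled KO library, while the Jun family keeps *Jun* as its largest part in all 6 libraries.

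Whether members of a family moved unequally was tested on the log2 ratio of their CPM in each library for 6 pairs, with a two-sided exact permutation test that cannot go below p = 0.1 with 3 libraries against 3. *Maff* fell relative to *Mafg* by 3.29 on the log2 scale, from a mean ratio of 0.25 ± 1.21 to one of -3.03 ± 0.87 (SD, n = 3 each; exact p = 0.1, adjusted 0.15). The other pairs at that smallest p were *Maff* to *Mafk* (difference -2.06), *Fos* to *Fosl2* (-2.26) and *Atf3* to *Jund* (-3.01), each without overlap between the groups. The ratios of *Junb* and *Jun* to *Jund* overlapped, with differences of -0.36 (exact p = 0.6) and -0.47 (exact p = 0.5). No pair could pass a threshold of 0.05 in this design.

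**Figure D3:**
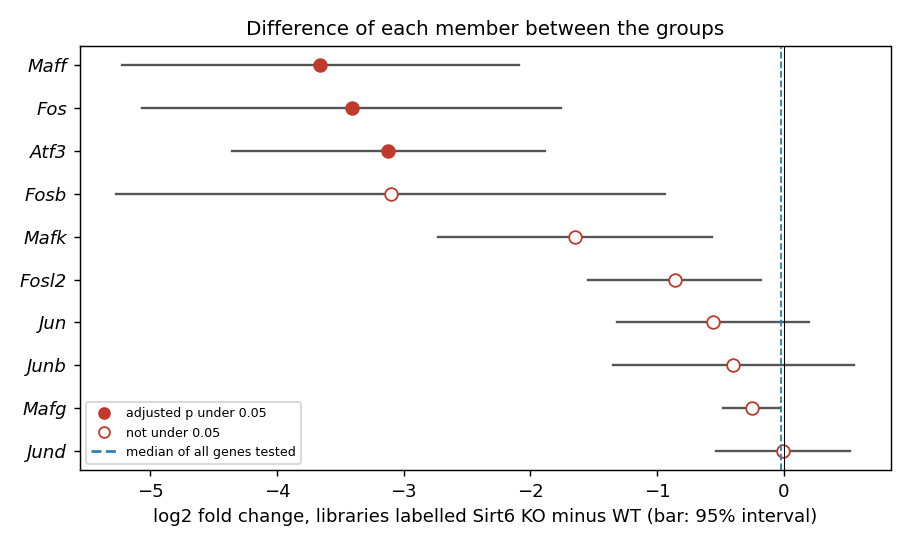
Log2 fold change of each member, libraries labelled *Sirt6* KO minus WT, with its 95% interval from the edgeR fit; filled points have an adjusted p under 0.05 and the dashed line is the median of all genes tested, -0.021. *Maff*, *Fos* and *Atf3* are filled, and the intervals of *Jun*, *Junb* and *Jund* span 0.

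Most members shared the same lowest WT library and the same highest labelled KO library. WT library 3 was the lowest WT library for 8 of the 10 members, all but *Jun* and *Mafg*, and for 37.4% of all genes tested. Labelled KO library 2 was the highest labelled KO library for 7 members and for 36.1% of all genes. The highest WT library varied, being WT library 1 for 3 members, WT library 2 for 5 and WT library 3 for 2. Other genes separated these libraries too. The summed CPM of 7 slow fiber markers was 3570 and 2944 in WT libraries 1 and 2 and 2099 in labelled KO library 2, against 132 in WT library 3 and 359 and 500.3 in labelled KO libraries 1 and 3. *Hbb-bt*, a beta-globin gene, had 2766, 2457 and 1908 counts in the first 3 of these libraries and 0 in the other three. All labelled KO libraries lay below all WT libraries for 6 members (*Fos*, *Fosb*, *Atf3*, *Maff*, *Mafg* and *Mafk*). The same held, in this direction, for 19.6% of all genes tested. Such genes are lower within any split of the libraries. Of the other 4, *Fosl2* was lower only among the libraries with *Hbb-bt* counts, and *Jun*, *Junb* and *Jund* only among those without. The first side sets labelled KO library 2 alone against WT libraries 1 and 2, and the second WT library 3 alone against labelled KO libraries 1 and 3. On that second side *Jund* differed little, at 14.3 CPM against 13.5 and 14.1. The share of all genes was not computed for this split, and each side has 1 library alone in a group, so nothing is concluded from it. With the slow fiber level as a covariate, 7 members were lower, against 14.9% of all genes in that fit, and *Fos* was at -2.87 (adjusted p = 0.0049), *Atf3* at -2.83 (0.00212) and *Maff* at -3.38 (0.00298).

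For this list and those below, the shares over all genes tested were 8.39% lower and 7.85% higher. The lists, like the members, were chosen with earlier results of these data known. Of 10 further AP-1 and ATF genes, 6 passed the filter on low counts and 1 was lower. *Atf4*, the factor of the integrated stress response, fell by 0.64 on the log2 scale (267 ± 13.6 CPM in WT, 172 ± 28.5 in the labelled KO libraries, SD of 3; adjusted p = 0.0316). *Fosl1*, *Batf*, *Batf2* and *Batf3* had at most 13 counts in any library. Of the partners of the small Maf proteins, 2 of the 4 tested were lower, and the median log2 fold change was -1.18. *Nfe2l2*, which encodes NRF2, fell from 90.3 ± 23.2 to 39.4 ± 1.18 CPM (log2 fold change -1.20, adjusted p = 0.0148). *Bach1*, which encodes its repressive counterpart, fell from 113 ± 34.5 to 50.1 ± 6.29 CPM (-1.17, adjusted p = 0.0189). Of the large Maf genes, whose proteins carry an activation domain, *Maf* fell (-1.48, adjusted p = 0.0110) and *Mafa* rose (1.36, adjusted p = 0.0171).

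Upstream of AP-1, 0 of 21 kinase and serum response factor genes were lower in the edgeR test and 2 were higher: *Mapk7*, which encodes the kinase ERK5, at 1.05 (adjusted p = 0.0164) and *Mkl1*, a coactivator of the serum response factor, at 1.50 (adjusted p = 0.0131). Over all genes tested, 8.39% were lower and 7.85% higher. The median of this list was 0.033, and *Srf* was at 0.040. Among 7 genes for degradation or corepression of AP-1, *Hdac3* rose (0.78, adjusted p = 0.0290) and the other 6 did not pass. Of 16 genes with AP-1 promoter sites, 13 were tested and 5 were lower, with a list median of -1.36. They were *Cd44*, a hyaluronan receptor (-1.68, adjusted p = 0.0110), *Hmox1*, the heme oxygenase (-1.22, adjusted p = 0.0131), *Plaur*, the urokinase receptor (-2.35, adjusted p = 0.0297), *Hbegf*, a growth factor (-1.43, adjusted p = 0.0293), and *Vegfa*, the vascular growth factor (-1.36, adjusted p = 0.0340). *Mmp9*, a gelatinase, rose from 0.448 ± 0.0985 to 1.20 ± 0.304 CPM (1.42, adjusted p = 0.0339).

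Of 14 antioxidant response element genes, 13 were tested, 3 were lower and 1 was higher, with a median of -0.29. Over all genes tested, 8.39% were lower and 7.85% higher. *Srxn1*, sulfiredoxin, fell from 272 ± 87.0 to 54.5 ± 9.86 CPM (-2.32, adjusted p = 0.0110), and it too is one of the genes the study picked for its decrease. *Gclm*, a subunit of glutamate-cysteine ligase, fell (-0.87, adjusted p = 0.0296), as did *Hmox1*, which stands in both lists. *Fth1*, ferritin heavy chain, rose from 1344 ± 267 to 2763 ± 247 CPM (1.04, adjusted p = 0.0183). *Nqo1*, often used as a measure of NRF2 activity, was at 0.030. Without labelled KO library 1, 1 gene of all these lists was lower and 0 were higher, and without labelled KO library 3, 0 passed in either direction.

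Several cell types other than myofibers express AP-1 genes, and their markers were read beside the members. In bulk RNA, fewer cells of a type and less RNA per cell cannot be told apart. Of 5 satellite cell markers, *Pax7* (1.28), *Myf5* (1.33) and *Cdh15* (0.97) rose. The other two had log2 fold changes below 0 and did not pass: *Calcr* at -0.63 (adjusted p = 0.256) with overlap, and *Chodl* at -0.49 (adjusted p = 0.139) without. The 5 summed to 27.2 to 34.2 CPM in WT and 38.9 to 53.2 in the labelled KO libraries, of which *Cdh15* alone made up 17.6 ± 4.65 and 34.5 ± 5.24 CPM (SD, n = 3 each). Of 6 endothelial markers 0 passed, and their sum was 170 to 351 CPM in WT and 188 to 203 in the labelled KO libraries. Of 5 fibroblast markers (468 to 864 against 547 to 576 CPM), 6 macrophage markers (25.3 to 57.4 against 33.1 to 38.0 CPM), 4 adipocyte markers (3.73 to 44.3 against 12.3 to 106 CPM) and 5 erythroid markers (46.6 to 297 against 80.2 to 181 CPM), 0 passed. In the lists without a call, the gene with the smallest p was *Pecam1* for endothelium (-0.70, adjusted p = 0.0765), *Dcn* for fibroblasts (-0.68, adjusted p = 0.0995), *C1qa* for macrophages (-0.44, adjusted p = 0.308), *Plin1* for adipocytes (0.93, adjusted p = 0.485) and *Alas2* for erythroid cells (-1.10, adjusted p = 0.255). For skeletal muscle it was *Myh1* (-1.03, adjusted p = 0.182) and for slow fibers *Atp2a2* (-1.08, adjusted p = 0.396). A single gene need not have the direction of its list. Log2 fold changes were below 0 for all 7 slow fiber markers and all 5 erythroid markers. They were below 0 for 5 of the 6 endothelial, 4 of the 6 macrophage and 0 of the 4 adipocyte markers. Of the 8 skeletal muscle markers, 2 had log2 fold changes below 0, and the median was 0.44. Among the 5 fibroblast markers, 3 were below 0, with a median of -0.25. The 4 neutrophil markers summed to at most 0.544 CPM in any library and did not pass the filter on low counts. The part of these cells in the differences of the members was not tested.

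**Figure D4:**
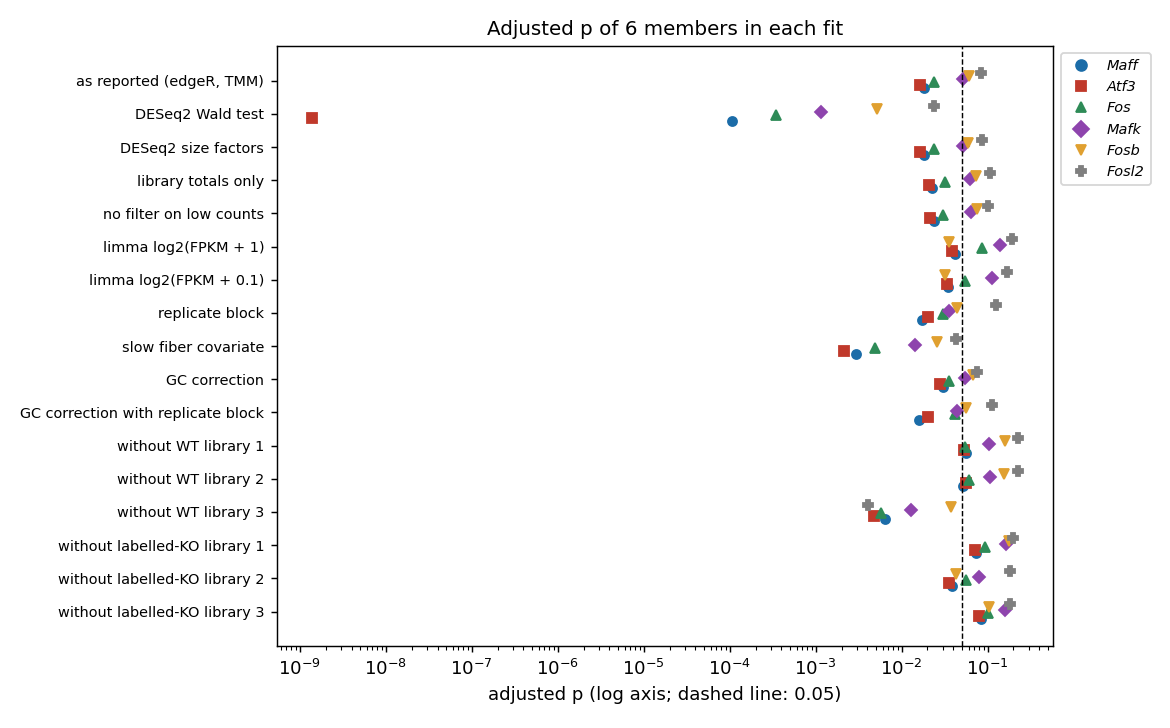
Adjusted p (log axis, dashed line at 0.05) of *Maff*, *Atf3*, *Fos*, *Mafk*, *Fosb* and *Fosl2* in the edgeR fit as reported and in 16 other fits. *Maff* and *Atf3* lie left of the line in every fit that kept all 6 libraries, and all 6 genes lie right of it without WT library 1, WT library 2, or labelled KO library 1 or 3.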

How the data were processed

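RNA of GAS muscle after poly-A selection was read from both fragment ends over 100 bp. The authors deposited read counts per gene from StringTie on mm10 (GRCm38), not normalized between libraries, with FPKM and TPM values that the authors deposited beside them. Per the labels' processing notes, HISAT2 2.1.0, Bowtie2 2.3.4.1 and StringTie 2.1.3b were used, whereas the reporting summary names STAR. The labels name a stranded kit and the methods TruSeq RNA v2; whether counting used strand is not given in the sources used here.

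The deposited counts were tested using edgeR 4.0.16 on R 4.3.3 (filterByExpr, TMM, quasi-likelihood test on group, Benjamini-Hochberg adjustment over 13801 genes). Alternatives were DESeq2 1.42.0, limma 3.58.1 on quantile-normalized log2(FPKM + 1) or log2(FPKM + 0.1), other scalings, no filter, a replicate block, a slow fiber covariate, a GC correction and each library left out. Checked on simulated data were DESeq2, both limma scales, and edgeR with and without the filter, with the block and with the GC correction. The other fits were not checked in this way. DESeq2 had the largest share of false calls in that check, above the level its threshold allows, so its calls are the least strict here. Ratios of members were compared by exact permutation tests. The alternatives for the related lists, the covariate and GC fits of *Sirt6*, and the split by *Hbb-bt* were chosen after seeing the data. Positions are RefSeq's on GRCm38.p6.

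The members and gene lists were chosen with earlier results of these data known. Named are the 10 members, *Sirt6*, the listed genes with an adjusted p under 0.05 (in lists with none, the smallest p), and the 3 genes nearest to each member in pattern. *Srf*, *Nqo1*, *Gm17586*, *Hbb-bt*, *Calcr*, *Chodl* and the untested *Fosl1*, *Batf*, *Batf2* and *Batf3* were named after their values were seen. Some genes of the lists are not reported here.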

Additional observations from a re-analysis of the deposited data

How the results depend on the processing

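The count of 3 lower members became 6 with DESeq2's Wald test, 5 with the replicate block and 7 with the slow fiber covariate, and lay between 0 and 6 with each library left out; the count of higher members stayed at 0 in all of these fits. Over all genes, 1158 were lower, against 1820 with DESeq2, 2058 with the covariate, 480 with the GC correction and 372 with that correction and the block. Whether the replicate numbers pair the libraries was not settled. The deviations of same-numbered libraries from their group means correlated across genes at -0.11, 0.26 and 0.16, but differently numbered libraries were not compared. The block added *Fosb* and *Mafk* to the 3 called members and removed none. In the related lists, 11 genes were lower and 6 higher. The lower count became 17 with the slow fiber covariate and lay between 0 and 14 with each library left out, and the higher count became 3 with the GC correction and the block together and lay between 0 and 10. With each library left out, *Sirt6* lay between 1.37 and 1.55, with an adjusted p of 0.0606 without labelled KO library 1 and 0.0650 without labelled KO library 3. *Jund* changed sign without the filter on low counts (0.0035) and with the slow fiber covariate (0.034), and ranged from -0.27 to 0.14 with each library left out. *Junb* ranged from -0.84 to 0.033, and the ratio of *Junb* to *Jund* from -0.56 to 0.0080. The cause of these changes was not tested. The fits that left 1 out had fewer libraries and also differed in which library was missing, and these cannot be told apart. Fold changes rose with GC content across genes (Spearman's rho 0.34, genes not being independent replicates), with the 10 members between 51.9% and 67.1% GC and a median of 49.8% over the genes tested. With the trend removed over the 13271 genes with a known GC content (96.2%), *Fos* was at -3.51, *Atf3* at -3.23 and *Maff* at -3.89, all under an adjusted p of 0.05, and *Mafg* passed as well (-0.44, adjusted p = 0.0444). *Fosb* is limited by depth, with at most 25 counts in a labelled KO library.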

Other observations

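Genes with a pattern over the 6 libraries most like that of a member were found by the root mean square difference of mean-centred log2 CPM, a distance in log2 units, given as a description. The nearest gene to *Fos* among all genes tested was another member, *Atf3*, at 0.37, followed by the orphan receptor *Nr4a2* at 0.40 and the chaperone *Hsp90aa1* at 0.45. *Nr4a2* was also the nearest to *Atf3* (0.35), ahead of *Fos* and of *Csrnp1* (0.39). The nearest to *Maff* was *Ppargc1a* (0.31), which encodes PGC-1alpha and which, like *Maff*, the study picked for its decrease, followed by *Tmem82* (0.35) and *BB123696* (0.44). *Mafk* had *Scn2b* (0.11), *Lancl3* (0.13) and *Mctp2* (0.19) nearest, none of them among the neighbours of *Maff*. *Fosb* had *Cfap69* (0.61), *2010003K11Rik* (0.70) and *Ddit4* (0.72).

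*Fosl2* was nearest to *Marveld1* (0.067), *Csrp2* (0.069) and *Gas5* (0.091), and *Jun* to *Nr6a1* (0.15), *Fancb* (0.16) and *Klhl38* (0.17). *Junb* was nearest to *Wnt10b* (0.073), *Nyap1* (0.13) and *Grip2* (0.16), *Jund* to *Cox6a1* (0.074), *Gys1* (0.085) and *Fdx1* (0.088), and *Mafg* to *Otud6b* (0.014), *Cct4* (0.016) and *Ier3ip1* (0.022). Both *Fos* and *Fosb* had *Atf3* as the nearest of the other members, at 0.37 and 0.74, and so did *Maff*, at 0.56.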
